A study of Mus musculus with 6 samples.

Results

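The immediate early genes of the AP-1 and EGR families were described here by 10 members fixed by name: Fos, Fosb, Fosl1, Fosl2, Jun, Junb, Jund, Egr1, Egr2 and Ier2. These were 10 of the 27179 genes in the count tables, and all 10 had counts in every library. Poly-A RNA was sequenced from 3 immortalized mouse embryonic fibroblast (MEF) lines of the C57BL/6 strain, with 2 independent RNA preparations for each line. Cry/Per_KO cells carried cry1-/-, cry2-/-, per1-/- and per2-/- alleles, Per/Nr1d_KO cells carried per1-/-, per2-/-, nr1d1-/- and nr1d2-/- alleles, and Cry/Per/Nr1d_KO cells carried the mutations of all 6 genes. All 3 lines therefore lacked PER1 and PER2, and no wild-type cells were among the libraries. Cry/Per/Nr1d_KO was 1 clone made by CRISPR from Cry/Per_KO cells, whereas Per/Nr1d_KO was made separately, so genotype and line cannot be told apart. The cells were neither synchronised nor serum-shocked, and they grew in medium with 10% fetal bovine serum until RNA was taken. The samples' genotype labels and the names of the deposited tables assigned the Cry/Per_KO and Cry/Per/Nr1d_KO lines in opposite ways. The genotype labels were followed, and these pairs are called the Cry/Per_KO-labelled and the Cry/Per/Nr1d_KO-labelled libraries. For Arntl, Nr1d1, Nr1d2 and Per1, the order of these lines described in the study is the one that the table names give. With the labels exchanged, every difference between those pairs changes its sign, and the reference of each Per/Nr1d_KO comparison becomes the other pair.

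FOS and JUN proteins pair through leucine zippers to form AP-1, a transcription factor that binds the TGACTCA element, and JUN proteins can also pair among themselves. EGR1 and EGR2 are zinc finger transcription factors that bind GC-rich sites. Their genes are transcribed within minutes of serum, growth factors or stress, without new protein synthesis, through ERK, JNK, serum response factor and CREB, and the transcripts of Fos and Egr1 decay quickly. In fibroblasts a change of serum induces them strongly, so that their level at harvest also depends on the state of the culture. Fosl2, Jund and, in growing cells, Jun are held at a steadier level than Fos.

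Promoters are shown for the members with the largest differences between the lines, Egr2, Fos and Fosl2, for Jun, which moved opposite to the other JUN genes, and for Junb, which followed the order of Fosl2. Each is the 250 bases before a RefSeq start on GRCm38.p6, written 5′ to 3′ on the strand of the gene. The positions are chr12:85473640-85473889 on the plus strand for Fos, chr5:32136222-32136471 on the plus strand for Fosl2, chr4:95052223-95052472 on the minus strand for Jun, chr8:84978749-84978998 on the minus strand for Junb, and chr10:67537619-67537868 on the plus strand for Egr2, which has 5 listed starts. Capitals mark motif matches on either strand. They mark TGACG, the CRE half-site, in Fos, Junb and Egr2, TGACATCA, the variant AP-1 element known from Jun, in Jun, GCGNGGGCG, the EGR site, in Fosl2, and the CArG box of serum response factor in Egr2.
Fos: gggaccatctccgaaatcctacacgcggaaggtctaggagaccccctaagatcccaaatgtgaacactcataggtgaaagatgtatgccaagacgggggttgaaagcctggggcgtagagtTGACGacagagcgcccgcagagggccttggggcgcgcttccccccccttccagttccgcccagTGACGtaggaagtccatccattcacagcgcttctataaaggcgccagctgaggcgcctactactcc
Fosl2: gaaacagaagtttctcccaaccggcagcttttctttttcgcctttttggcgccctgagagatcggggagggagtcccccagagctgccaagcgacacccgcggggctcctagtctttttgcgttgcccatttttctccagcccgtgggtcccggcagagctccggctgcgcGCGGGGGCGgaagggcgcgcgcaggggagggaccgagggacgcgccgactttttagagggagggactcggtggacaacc
Jun: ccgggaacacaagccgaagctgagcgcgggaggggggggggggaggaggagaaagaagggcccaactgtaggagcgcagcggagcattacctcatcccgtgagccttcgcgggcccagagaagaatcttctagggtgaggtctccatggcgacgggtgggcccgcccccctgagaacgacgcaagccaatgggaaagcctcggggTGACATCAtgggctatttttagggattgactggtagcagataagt
Junb: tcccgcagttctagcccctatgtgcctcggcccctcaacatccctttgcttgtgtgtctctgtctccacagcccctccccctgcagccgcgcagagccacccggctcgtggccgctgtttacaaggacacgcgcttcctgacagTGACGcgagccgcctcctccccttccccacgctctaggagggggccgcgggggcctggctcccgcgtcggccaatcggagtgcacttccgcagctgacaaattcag
Egr2: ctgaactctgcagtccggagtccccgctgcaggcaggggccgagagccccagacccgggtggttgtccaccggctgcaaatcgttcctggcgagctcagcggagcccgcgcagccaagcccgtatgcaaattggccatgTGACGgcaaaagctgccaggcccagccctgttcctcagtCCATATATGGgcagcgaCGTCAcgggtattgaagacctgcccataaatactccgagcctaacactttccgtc

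Of 32851 mouse promoters of this length, 17.8% held TGACG, 2.93% held TGACATCA, 4.7% held GCGNGGGCG and 1.47% held a CArG box. The half-site TGACG is part of the full CRE, TGACGTCA, which 1.55% of promoters held and none of the 5 windows did. The AP-1 element TGACTCA was in 4.46% of promoters, the E-box CACGTG bound by CLOCK-BMAL1 in 6.02%, and TAGGTCA, the core of the element bound by NR1D, in 2.23%. None of these 3 was in the 5 windows, although a window of Egr2 that starts at another site held 1 CACGTG. The match in Jun began 45 bases before the start, that in Fosl2 79 bases before it and that in Junb 106 bases before it. A match of letters describes the sequence and does not show binding. Promoters of Fosb, Fosl1, Jund, Egr1 and Ier2 are not shown.

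Total counts per library ran from 53764390 to 85927236. Values are counts scaled to the mean effective library size by the trimmed mean of M values, called normalized counts. Differences were tested with edgeR's quasi-likelihood test in 1 fit of all 6 libraries over the 11934 genes whose mean reached 100 normalized counts, and p-values were adjusted over those genes by the Benjamini-Hochberg method. A gene was called where the adjusted p was under 0.05 and the log2 fold change beyond 0.81 in either direction, the fold limit of the study. Of the members, 9 of 10 entered the test, and Fosb, with a mean of 99.7 normalized counts, did not. Both libraries of a line came from the same cells in culture, so the p-values measure the spread between preparations and not between independently made lines, and in bulk RNA fewer expressing cells and less RNA per cell cannot be told apart. Within a line the tables differed by more than counting noise, and no library duplicated another. Transcripts of the mutated genes Nr1d1 and Nr1d2 were counted in every library, so their presence gave no check of the labels. Nr1d1 had 3158 and 3146 normalized counts in the Cry/Per/Nr1d_KO-labelled libraries, 9337 and 9249 in the Cry/Per_KO-labelled ones and 5359 and 4838 in Per/Nr1d_KO. Nr1d2 had 4881 and 5506, 8262 and 8008, and 5558 and 5717 in the same order. Arntl, which encodes BMAL1 and is known to be repressed by NR1D, had 1191 and 1171, 2176 and 2208, and 2493 and 2455. Between the first and the next pair this is the reverse of the order that repression by NR1D alone would give under the labels. The study describes Arntl, Nr1d1, Nr1d2 and Per1 mRNA as lower in Cry/Per_KO than in Cry/Per/Nr1d_KO cells, also the reverse of the labelled order. Per1 had 3066 and 3062 normalized counts in the Cry/Per/Nr1d_KO-labelled libraries and 5644 and 5793 in the Cry/Per_KO-labelled ones. Whether the labels are exchanged was not tested. Of 8 fibroblast markers, 7 passed the filter on counts and Thy1 did not. In Per/Nr1d_KO 3 of the 7 were called higher and 4 lower against the Cry/Per/Nr1d_KO-labelled libraries, with a median log2 difference of -0.87, and 2 higher and 3 lower against the Cry/Per_KO-labelled ones, with a median of -0.63. Between these pairs 0 were higher and 2 lower. The summed level of the list, most of it collagen, was 600914 to 655517, 513039 to 537402 and 1073940 to 1074940 normalized counts in the order of lines used for Nr1d1. Markers of other cell types were low, although their sums were highest in Per/Nr1d_KO for macrophages and epithelium. Those of macrophages summed to 182 and 181, 215 and 206, and 326 and 309 normalized counts with Tyrobp at 0 throughout, those of epithelium to 34.6 and 64.4, 24.5 and 17.7, and 129 and 132, and those of endothelium to 131 and 125, 49.0 and 57.9, and 113 and 138. Most of the macrophage sum in Per/Nr1d_KO was Cd68 (276 and 258), and most of the epithelial sum there was Cdh1 (100 and 110). Csf1r and Epcam were not highest in Per/Nr1d_KO. The part of these markers in the results of the members was not tested.

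The FOS family was led by Fosl2 in all 3 lines. Fos was called higher in Per/Nr1d_KO against both other pairs, and Fosl2 only against the Cry/Per/Nr1d_KO-labelled libraries. Fosl2, which encodes FRA-2, a FOS protein without the strong activation domain of c-FOS, had 8673 and 8380 normalized counts in the Cry/Per/Nr1d_KO-labelled libraries, 14073 and 14708 in the Cry/Per_KO-labelled ones, and 23053 and 23141 in Per/Nr1d_KO. The 3 pairs did not overlap, and the libraries of a pair lay close together. Fosl2 was 2.71-fold higher in Per/Nr1d_KO than in the Cry/Per/Nr1d_KO-labelled libraries (log2 1.44, SE 0.04, edgeR adjusted p = 1.1e-13). The step from the Cry/Per_KO-labelled libraries to Per/Nr1d_KO, log2 0.68 (SE 0.04, edgeR adjusted p = 6.2e-10), and the step between the other pairs, log2 0.75 with the Cry/Per_KO-labelled libraries above the Cry/Per/Nr1d_KO-labelled ones (SE 0.04, edgeR adjusted p = 5.7e-10), both stayed under the fold limit and were not called.

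Fos, which encodes c-FOS, the member most tied to acute stimulation, was scarce in growing cells. It had 234 and 208 normalized counts in the Cry/Per/Nr1d_KO-labelled libraries, 145 and 116 in the Cry/Per_KO-labelled ones and 488 and 467 in Per/Nr1d_KO. No pair overlapped another, and Per/Nr1d_KO was the highest. Fos rose 3.67-fold from the Cry/Per_KO-labelled libraries to Per/Nr1d_KO (log2 1.88, SE 0.13, edgeR adjusted p = 1.4e-09) and 2.15-fold from the Cry/Per/Nr1d_KO-labelled ones (log2 1.10, SE 0.11, edgeR adjusted p = 3.6e-07). Fos lies on chromosome 12, whose median gene differed by -0.23 and 0.08 on the log2 scale in these comparisons. Between the Cry/Per_KO-labelled libraries and the Cry/Per/Nr1d_KO-labelled ones the log2 difference of Fos was -0.78 (SE 0.14, edgeR adjusted p = 0.00011), just under the fold limit, while the median gene of chromosome 12 differed by 0.35 in the opposite direction. That value passed the limit without the second Cry/Per/Nr1d_KO-labelled library (log2 -0.85), without the first Cry/Per_KO-labelled library (log2 -0.94), and after subtraction of the chromosome's median (log2 -1.12).

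Fosl1, which encodes FRA-1, a FOS protein long linked to growth of transformed cells, took the reverse order of Fosl2 with small differences. It had 1405 and 1544 normalized counts in the Cry/Per/Nr1d_KO-labelled libraries, 1129 and 1363 in the Cry/Per_KO-labelled ones, and 1129 and 936 in Per/Nr1d_KO. The last 2 pairs met at their edges, and no comparison was called. The largest of the 3 differences was log2 -0.52 in Per/Nr1d_KO against the Cry/Per/Nr1d_KO-labelled libraries (SE 0.10, edgeR adjusted p = 0.00019). Of its exon bases, 57.2% also lie in exons of Ccdc85b on the opposite strand, and the strand setting of the counting is not given in the sources used here, so reads of both genes may have been counted or lost together. Fosb, whose protein is closest to c-FOS, had 115 and 87.7 normalized counts in the Cry/Per/Nr1d_KO-labelled libraries, 73.5 and 109 in the Cry/Per_KO-labelled ones, and 109 and 103 in Per/Nr1d_KO. All 3 pairs overlapped, and at this depth no difference in Fosb was detectable.

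**Figure D1:**
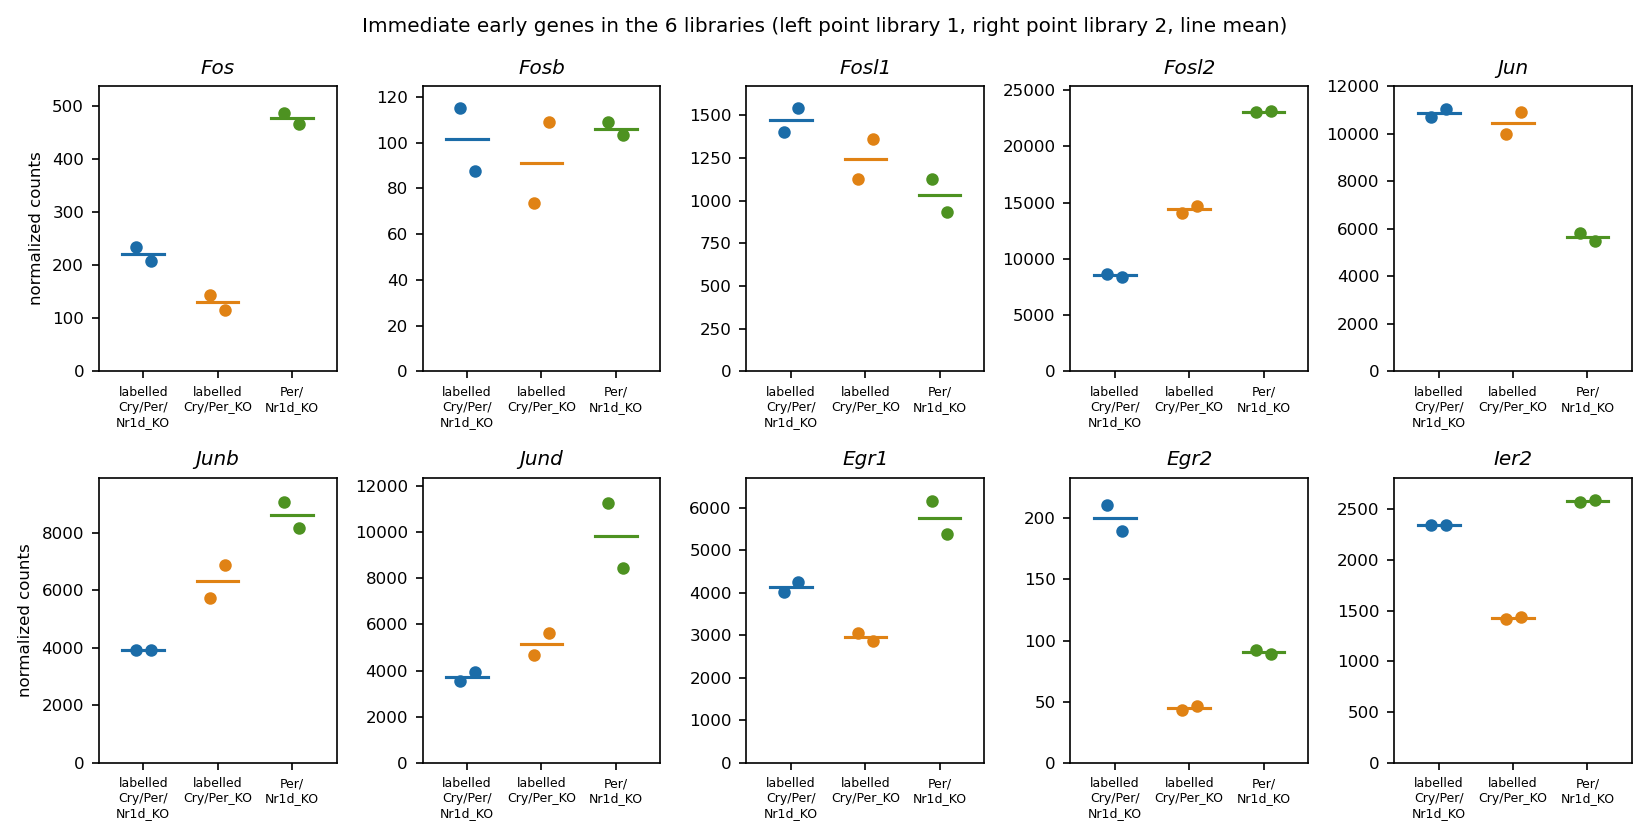
Normalized counts of the 10 members in each library, with 1 panel per gene and a vertical axis from 0; the left and right points are libraries 1 and 2 of a line and the line is their mean. Per/Nr1d_KO lies above the other 4 libraries for Fos, Fosl2, Junb, Jund, Egr1 and Ier2 and below them for Jun.

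Among the JUN genes, Jun was called lower and Jund higher in Per/Nr1d_KO against both other pairs, and Junb was called higher there only against the Cry/Per/Nr1d_KO-labelled libraries. Jun, which encodes c-JUN, a partner with which FOS proteins bind DNA and an activator of its own promoter, had 10707 and 11021 normalized counts in the Cry/Per/Nr1d_KO-labelled libraries, 9979 and 10929 in the Cry/Per_KO-labelled ones, and 5811 and 5474 in Per/Nr1d_KO. The first pairs overlapped, and Per/Nr1d_KO lay far below both. Jun fell 1.93-fold against the Cry/Per/Nr1d_KO-labelled libraries (log2 -0.95, SE 0.05, edgeR adjusted p = 1.7e-10) and 1.85-fold against the Cry/Per_KO-labelled ones (log2 -0.89, SE 0.05, edgeR adjusted p = 2.5e-10). The median gene of chromosome 4, where Jun lies, differed by -0.16 and -0.19 in these comparisons, and with it subtracted the values were -0.79 and -0.70 and no longer passed the fold limit. Between the other pairs the log2 difference of Jun was -0.06 (SE 0.05, edgeR adjusted p = 0.33), and without the first Cry/Per_KO-labelled library it was 0.01.

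Junb, whose protein often opposes c-JUN on shared targets, had 3923 and 3926 normalized counts in the Cry/Per/Nr1d_KO-labelled libraries, 5747 and 6899 in the Cry/Per_KO-labelled ones, and 9089 and 8187 in Per/Nr1d_KO. The pairs did not overlap and stood in the order seen for Fosl2. Junb was 2.20-fold higher in Per/Nr1d_KO than in the Cry/Per/Nr1d_KO-labelled libraries (log2 1.14, SE 0.07, edgeR adjusted p = 1.1e-09). Its log2 difference was 0.45 against the Cry/Per_KO-labelled libraries (SE 0.07, edgeR adjusted p = 2.8e-05) and 0.69 between these and the Cry/Per/Nr1d_KO-labelled libraries (SE 0.07, edgeR adjusted p = 5.1e-07). Neither was called, although the latter reached 0.81 and was called without the first Cry/Per_KO-labelled library.

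Jund, which encodes the JUN protein typical of resting cells, had 3554 and 3916 normalized counts in the Cry/Per/Nr1d_KO-labelled libraries, 4681 and 5650 in the Cry/Per_KO-labelled ones, and 11263 and 8436 in Per/Nr1d_KO. Here too no pair overlapped another, but the spread within Per/Nr1d_KO was wide. Jund rose 2.63-fold against the Cry/Per/Nr1d_KO-labelled libraries (log2 1.40, SE 0.11, edgeR adjusted p = 1.2e-08). Against the Cry/Per_KO-labelled ones it rose 1.90-fold (log2 0.93, SE 0.11, edgeR adjusted p = 8.6e-07), and this call was lost without the first Per/Nr1d_KO library (log2 0.71) or without the first Cry/Per_KO-labelled library (log2 0.80). The difference between the other pairs was log2 0.47, with the Cry/Per_KO-labelled libraries the higher (SE 0.11, edgeR adjusted p = 0.0011, not called). Of the exon bases of Jund, 52.6% overlap Gm11175 on the opposite strand, so its counts carry the same doubt as those of Fosl1. For Jun the overlap was 7.28%, with Junos, and for Junb 7.52%, with Prdx2.

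The EGR genes differed from each other in which line was highest. Egr1, the most abundant EGR gene and a direct target of serum response factor, had 4025 and 4260 normalized counts in the Cry/Per/Nr1d_KO-labelled libraries, 3063 and 2853 in the Cry/Per_KO-labelled ones, and 6151 and 5386 in Per/Nr1d_KO. The pairs did not overlap, and their order was that of Fos. Egr1 was 1.95-fold higher in Per/Nr1d_KO than in the Cry/Per_KO-labelled libraries (log2 0.96, SE 0.06, edgeR adjusted p = 1.3e-09), while the median gene of chromosome 18, where it lies, differed by -0.45. The log2 difference was 0.48 in Per/Nr1d_KO against the Cry/Per/Nr1d_KO-labelled libraries (SE 0.06, edgeR adjusted p = 5.1e-06) and -0.49 in the Cry/Per_KO-labelled libraries against the same reference (SE 0.06, edgeR adjusted p = 5.9e-06), and neither was called.

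Egr2, also known as Krox20 and best known from hindbrain and Schwann cells, was present at low counts. It had 211 and 190 normalized counts in the Cry/Per/Nr1d_KO-labelled libraries, 43.4 and 46.1 in the Cry/Per_KO-labelled ones, and 92.5 and 89.2 in Per/Nr1d_KO. Like Fosl1 it was highest in the Cry/Per/Nr1d_KO-labelled libraries, its pairs did not overlap, and it was the only member called in all 3 comparisons. It passed the filter on counts only through those libraries. Egr2 was 4.48-fold lower in the Cry/Per_KO-labelled libraries than in the Cry/Per/Nr1d_KO-labelled ones (log2 -2.16, SE 0.16, edgeR adjusted p = 1.2e-08). In Per/Nr1d_KO it was 2.22-fold below the Cry/Per/Nr1d_KO-labelled libraries (log2 -1.15, SE 0.14, edgeR adjusted p = 2.3e-06) and 2.02-fold above the Cry/Per_KO-labelled ones (log2 1.01, SE 0.19, edgeR adjusted p = 0.00014). The call against the Cry/Per_KO-labelled libraries was lost with edgeR's glmTreat (adjusted p = 0.2), and none of the 3 calls of Egr2 met the study's adjusted p limit of 1e-22 with DESeq2. With the labels exchanged, the highest pair would be Cry/Per_KO.

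Ier2 encodes a small nuclear protein induced by serum along with c-FOS, and its libraries differed by a ratio of no more than 1.01 within any line. It had 2342 and 2341 normalized counts in the Cry/Per/Nr1d_KO-labelled libraries, 1413 and 1432 in the Cry/Per_KO-labelled ones, and 2573 and 2587 in Per/Nr1d_KO. The Cry/Per_KO-labelled libraries stood apart on the low side. Ier2 was 1.81-fold higher in Per/Nr1d_KO than in them (log2 0.86, SE 0.06, edgeR adjusted p = 1e-09), and this call was lost after subtraction of the median of chromosome 8 (log2 0.75). The Cry/Per_KO-labelled libraries were below the Cry/Per/Nr1d_KO-labelled ones by log2 -0.72 (SE 0.06, edgeR adjusted p = 1.9e-08), under the fold limit, and Per/Nr1d_KO differed from the latter by log2 0.14 (SE 0.05, edgeR adjusted p = 0.029).

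Counted together, 6 of the 9 tested members were called in Per/Nr1d_KO against the Cry/Per/Nr1d_KO-labelled libraries, where 20.7% of all genes tested were called. Fos, Fosl2, Junb and Jund were higher and Jun and Egr2 lower, against 11.3% of all genes called higher and 9.35% called lower. Against the Cry/Per_KO-labelled libraries, 6 of 9 were also called, with a background of 29%. Here Fos, Jund, Egr1, Egr2 and Ier2 were higher and Jun lower, and 15.2% and 13.8% of all genes were called in these directions. Between the Cry/Per_KO-labelled libraries and the Cry/Per/Nr1d_KO-labelled ones only Egr2 was called, and lower, 1 of 9 members against a background of 16.8% (7.86% higher and 8.95% lower). Egr2 passed the filter on counts only through the Cry/Per/Nr1d_KO-labelled libraries, so some difference was built into its calls against them. The members were also chosen with earlier results of these data known. By the adjusted p alone, 9, 9 and 8 of the 9 tested members passed in these 3 comparisons, as did 75.8%, 82.1% and 76.4% of all genes, and the pairs of libraries did not overlap for 9, 8 and 8 of the 10 members, as for 87.1%, 90.4% and 86.4% of the genes tested. With glmTreat, which tests against the fold limit itself, only Fos and Egr1 stayed called in Per/Nr1d_KO against the Cry/Per_KO-labelled libraries. With DESeq2 at the study's adjusted p limit the members called were Fosl2, Junb and Jun in the first comparison and Egr1, Ier2 and Jun in the next. Of all genes, 1764 were called at that limit in the first comparison, where the edgeR test called 2468. The numbers of all genes called under these settings in Per/Nr1d_KO against the Cry/Per_KO-labelled libraries are not given here. The members lost there therefore have no background. The 2 comparisons of Per/Nr1d_KO share its libraries, so they are not independent. Fos and Jund were called higher in both and Jun lower in both, as were 8.2% and 7.14% of all genes tested. Both Per/Nr1d_KO libraries lay above the other 4 for 6 of 10 members and below them for 1, against 32.7% and 30.2% of all genes tested.

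Median log2 differences of the tested members were 0.48 in Per/Nr1d_KO against the Cry/Per/Nr1d_KO-labelled libraries, 0.86 against the Cry/Per_KO-labelled ones and -0.24 between these pairs, and the medians of all genes tested were 0.01, 0.03 and 0.00. Among the fibroblast markers the lines differed widely in single genes. Col3a1 had 836 and 801 normalized counts in the Cry/Per/Nr1d_KO-labelled libraries, 289 and 296 in the Cry/Per_KO-labelled ones, and 42810 and 43797 in Per/Nr1d_KO, whereas S100a4 was lower in Per/Nr1d_KO by log2 -2.83 and -1.69 against these references.

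**Figure D2:**
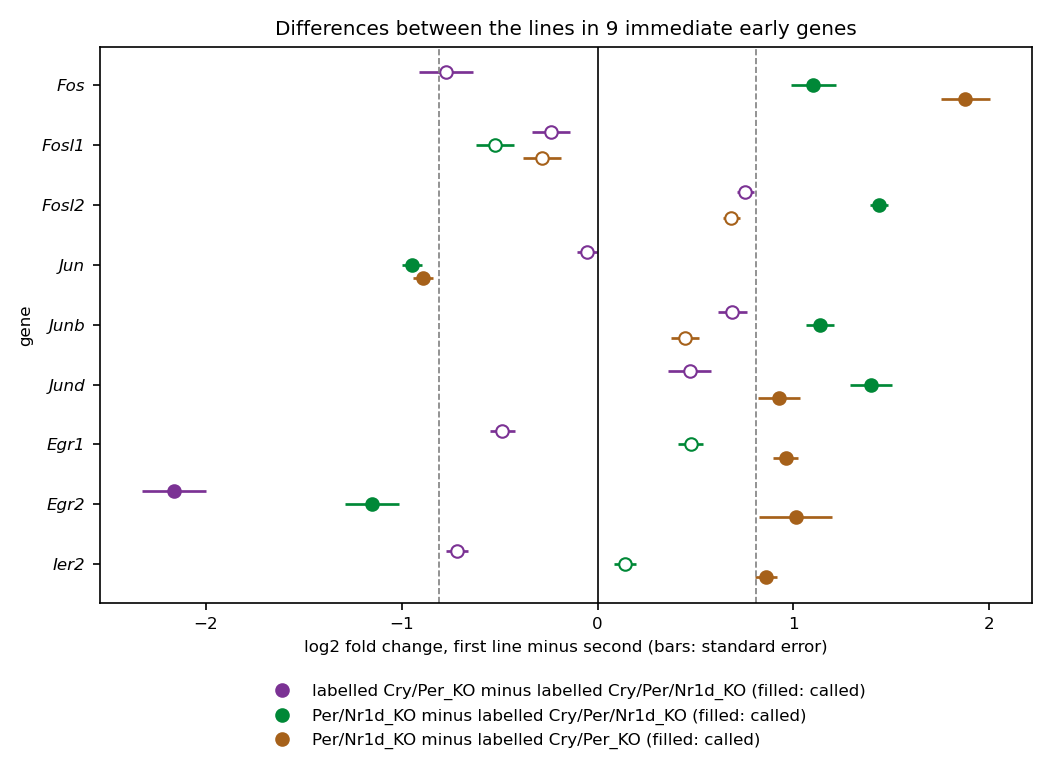
Log2 fold changes of the 9 tested members in the 3 comparisons, with bars of 1 standard error, filled points for called differences and dashed lines at the log2 limit of 0.81. Jun is the only member on the negative side in both Per/Nr1d_KO comparisons with a filled point, and Egr2 is filled in all 3 comparisons.

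Levels per length, as RPKM (counts scaled by transcript length and library size), allow the members to be ordered within a line. In the Cry/Per/Nr1d_KO-labelled libraries, Jun led with a mean of 51.7 RPKM ± 1.06 (SD, n = 2), followed by Jund at 34.0 ± 2.33 and Junb at 32.9 ± 0.02, which overlapped. Ier2 at 23.4 RPKM came next, then Egr1 at 20.7 and Fosl2 at 19.8, which overlapped, and Fosl1 at 12. In the Cry/Per_KO-labelled libraries, Junb at 53.1 RPKM ± 6.83 (SD, n = 2), Jun at 49.8 ± 3.20 and Jund at 47.0 ± 6.23 could not be separated. Fosl2 at 33.4 RPKM lay below them, and Egr1 at 14.8 and Ier2 at 14.2 overlapped. In Per/Nr1d_KO the order was Jund at 89.6 RPKM ± 18.2 (SD, n = 2), Junb at 72.5 ± 5.35 and Fosl2 at 53.6 ± 0.14, and Jun, at 26.9 ± 1.14, overlapped Egr1 at 28.8 ± 2.71. The place of Jund depends on its length. With the RefSeq span of the gene, a length chosen after seeing the data, its means were 19.7, 27.2 and 51.9 RPKM in the 3 lines. Those of Fosl2 were 19.8, 33.4 and 53.6 RPKM, close to Jund in all but the Cry/Per_KO-labelled libraries. Whether the libraries of these genes overlapped at this length is not given. The mean of Jund also fell below that of Junb in Per/Nr1d_KO and the Cry/Per/Nr1d_KO-labelled libraries, where it had been above. Fos, Fosb and Egr2 stayed at the bottom in every line, at 0.94 to 3.44, 0.37 to 0.43 and 0.23 to 1.03 mean RPKM.

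Within the FOS family the share of Fosl2 was highest in Per/Nr1d_KO and that of Fosl1 in the Cry/Per/Nr1d_KO-labelled libraries. Fosl2 made up 59.7% and 57.4% of the summed RPKM of the FOS family in the Cry/Per/Nr1d_KO-labelled libraries, 75.6% and 73.4% in the Cry/Per_KO-labelled ones, and 80.3% and 82.5% in Per/Nr1d_KO. The share of Fosl1 ran the other way, from 33.9% and 37.1% through 21.3% and 23.9% to 13.8% and 11.7%. Fos itself never exceeded 5.27% of its family. The summed level of the FOS family was 33.7 and 33.9 RPKM, 43.2 and 46.5 RPKM, and 66.7 and 65.1 RPKM in the same order of lines.

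Among the JUN genes, the share of Jun was 43.9% and 43.3% in the Cry/Per/Nr1d_KO-labelled libraries, 34.3% and 32.2% in the Cry/Per_KO-labelled ones, and 13.4% and 15.2% in Per/Nr1d_KO. Jund went from 27.8% and 29.4% and from 30.8% and 31.9% to 49.7% and 44.8%, and Junb went from 28.3% and 27.2% through 34.9% and 35.9% to 36.9% and 40.1%. The summed level of the JUN family was 116 and 121 RPKM, 138 and 161 RPKM, and 206 and 172 RPKM. By these lengths Per/Nr1d_KO had the highest sums and the least Jun. The sums depend on the length of Jund. With its RefSeq span the mean of Jund in Per/Nr1d_KO was 51.9 RPKM instead of 89.6, and the sums at that length are not given here. Egr2 was 5.10% and 4.37% of the RPKM of the EGR pair in the Cry/Per/Nr1d_KO-labelled libraries and between 1.43% and 1.67% in the other 4 libraries. With other transcript lengths the shares moved, and the mean shares of Fosl2 and Jun kept their order between the lines under those tried. The shares are a description, with no test.

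**Figure D3:**
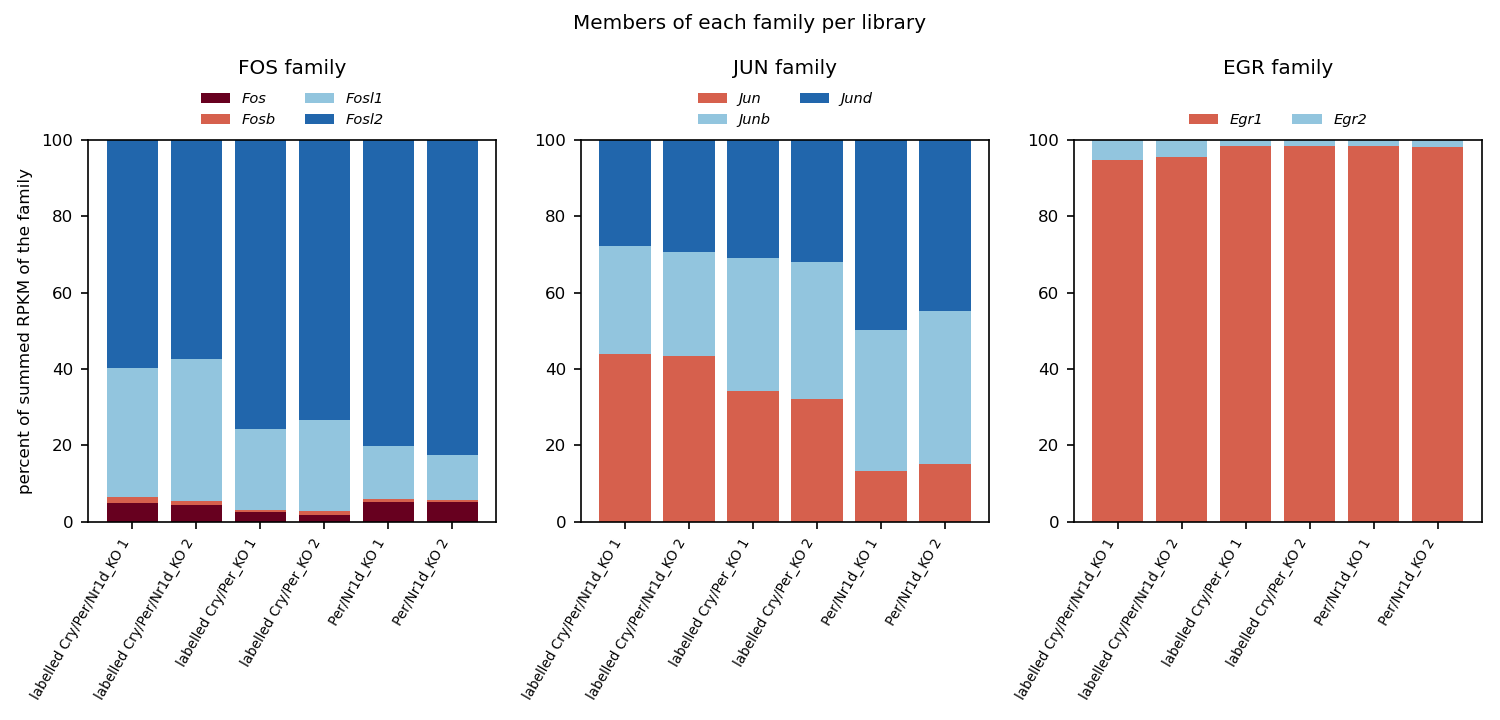
Share of each member in the summed RPKM of the FOS, JUN and EGR families, as stacked bars from 0 to 100 percent for each of the 6 libraries. Fosl2 takes 80.3% and 82.5% of the FOS family and Jun only 13.4% and 15.2% of the JUN family in Per/Nr1d_KO.

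The 2 libraries of a line were compared member by member, because immediate early genes respond to handling of the culture. With 1 library on each side there is no replicate check, and the 95% intervals given here (exact binomial) cover counting error only. A log2 ratio beyond 0.32 in either direction was seen for 1 of the 10 members in each line, against 2.92% of the tested genes in the Cry/Per/Nr1d_KO-labelled libraries, 3.54% in the Cry/Per_KO-labelled ones and 3.24% in Per/Nr1d_KO. With genes averaging 10 or more counts kept, so that Fosb is among them, the shares of all genes were 11.2%, 12.2% and 11.6%, and of the 9 tested members 0, 0 and 1 passed. In the first pair it was Fosb, at 0.76 of its first library in the second (interval 0.567 to 1.01), and in the next pair Fosb again, at 1.48 (interval 1.08 to 2.04). Both rest on low counts. In Per/Nr1d_KO it was Jund, at 0.749 (interval 0.728 to 0.770), which counting error does not cover.

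Fos, the most labile of the transcripts, had library ratios of 0.886 (interval 0.731 to 1.07), 0.801 (interval 0.619 to 1.04) and 0.957 (interval 0.841 to 1.09) in the same order of lines. The ratios of Egr1 were 1.06, 0.932 and 0.876, and those of Ier2 were 0.9995, 1.01 and 1.01. Fosl1, Junb and Jund each differed by 1.20 to 1.21 between the Cry/Per_KO-labelled libraries, with library 2 higher, and by 0.829, 0.901 and 0.749 between those of Per/Nr1d_KO. Of the 10 members, 5, 8 and 2 were higher in library 2 of the lines. The median absolute log2 difference between the libraries was 0.11 over the members and 0.07 over all genes tested in the Cry/Per/Nr1d_KO-labelled libraries, 0.20 and 0.06 in the Cry/Per_KO-labelled ones, and 0.08 and 0.06 in Per/Nr1d_KO.

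**Figure D4:**
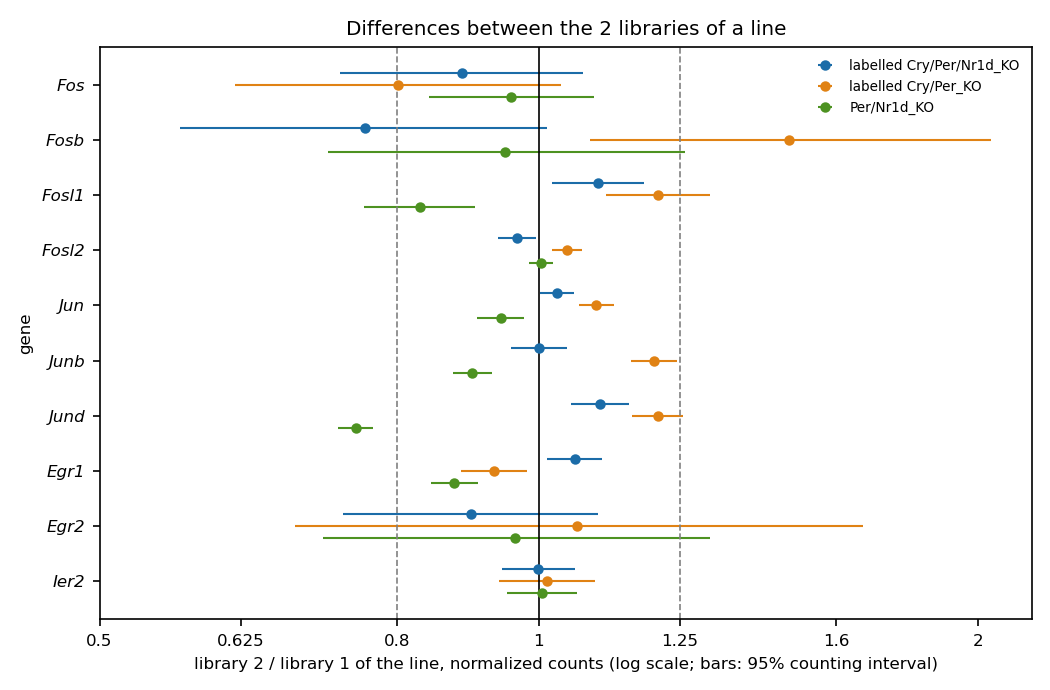
Ratio of library 2 to library 1 for each member in each line on a log axis, with 95% counting intervals and dashed lines at the limit in each direction. Fosb lies outside the lines in both pairs with cry mutations and Jund in Per/Nr1d_KO, whereas Ier2 and Fosl2 lie close to 1 in all lines.

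Other genes of the same response were followed in lists. Their counts stand beside the shares of all tested genes called higher and lower, 11.3% and 9.35% in Per/Nr1d_KO against the Cry/Per/Nr1d_KO-labelled libraries, 15.2% and 13.8% against the Cry/Per_KO-labelled ones, and 7.86% and 8.95% between these pairs. Of 38 other immediate early genes, 34 were tested, and in Per/Nr1d_KO 9 were higher and 1 lower against the Cry/Per/Nr1d_KO-labelled libraries, and 10 were higher and 2 lower against the Cry/Per_KO-labelled ones. Btg2, an antiproliferative gene, had the largest rise, with a mean of 5776 normalized counts in Per/Nr1d_KO, 955 in the Cry/Per/Nr1d_KO-labelled libraries and 678 in the Cry/Per_KO-labelled ones (log2 2.59 and 3.09, edgeR adjusted p = 1e-14 and 1.7e-15). Arc, an activity-regulated gene of neurons, rose by log2 1.99 and 2.77 against the same references. Nfkbiz, a regulator of NF-kB targets, rose by log2 2.03 against the Cry/Per/Nr1d_KO-labelled libraries. Its difference against the Cry/Per_KO-labelled ones was 0.46 and was not called. Atf3, a stress-induced AP-1 partner, rose by log2 1.42 and 2.44 against the same references. Between the Cry/Per_KO-labelled and Cry/Per/Nr1d_KO-labelled libraries, 5 of the 34 were higher and 5 lower, led by Ccn2, a matrix-associated target of serum response factor (log2 -1.63), Nfkbiz (log2 1.57) and Ier3 (log2 1.44). The medians of the list were 0.27, 0.39 and -0.05 on the log2 scale in these 3 comparisons.

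The list for ERK feedback held 15 genes, some induced by ERK signalling and some inhibitors of it, and not every gene is both. Of these, 13 were tested, and more were called lower than higher in Per/Nr1d_KO. In Per/Nr1d_KO 8 were lower and 0 higher against the Cry/Per/Nr1d_KO-labelled libraries, with 9.35% of all genes called lower, and 7 were lower and 2 higher against the Cry/Per_KO-labelled ones, with 13.8% of all genes called lower. The median log2 differences of the list were -1.36 and -0.96. Etv1, an ETS transcription factor, had means of 357, 706 and 16.8 normalized counts in the Cry/Per/Nr1d_KO-labelled libraries, the Cry/Per_KO-labelled ones and Per/Nr1d_KO (log2 -4.42 and -5.40, edgeR adjusted p = 3e-11 and 6.3e-13). The 2 called higher against the Cry/Per_KO-labelled libraries, named after their values were seen, were Dusp5, an ERK phosphatase (log2 1.41), and Spry2 (log2 0.84), and their log2 differences against the Cry/Per/Nr1d_KO-labelled libraries were 0.44 and 0.75, not called. Spry4, an inhibitor of receptor tyrosine kinase signalling, fell by 2.48 on the log2 scale against the Cry/Per/Nr1d_KO-labelled libraries. Etv4 fell by 2.19 on that scale against the Cry/Per_KO-labelled ones. Il1rl1, the receptor of IL-33, which is serum-induced in fibroblasts and is no feedback inhibitor, had log2 differences of -2.26 and -2.35. Between the Cry/Per_KO-labelled and Cry/Per/Nr1d_KO-labelled libraries, 1 of the 13 was higher, Etv1 (log2 0.99), and 4 were lower, led by Spry1 (log2 -1.49), which passed the filter only through the pair where it was high, and Dusp6, another ERK phosphatase (log2 -1.01).

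Few genes of the kinases and factors that carry the signal were called. Of 27 genes of the ERK, JNK and serum response factor arm, all tested, 1 was higher and 0 lower in Per/Nr1d_KO against the Cry/Per/Nr1d_KO-labelled libraries, 2 were higher and 2 lower against the Cry/Per_KO-labelled ones, and 1 was higher and 1 lower between these pairs. Egfr, the epidermal growth factor receptor, was the exception in size, with means of 719, 25.4 and 2728 normalized counts in the Cry/Per/Nr1d_KO-labelled libraries, the Cry/Per_KO-labelled ones and Per/Nr1d_KO. Its log2 differences were 1.92 and 6.73 in Per/Nr1d_KO against these references and -4.81 between them (edgeR adjusted p = 5.5e-13, 6.3e-17 and 1.3e-13). Map2k1, which encodes MEK1, was higher in the Cry/Per_KO-labelled libraries than in the Cry/Per/Nr1d_KO-labelled ones (log2 1.14) and lower in Per/Nr1d_KO than in the former (log2 -1.27). Of 20 possible dimer partners of AP-1 proteins 18 were tested. In Per/Nr1d_KO 2 were higher and 1 lower, and 2 higher and 2 lower, against the same references, and 1 was higher and 1 lower between the other pairs. Maf had means of 1254, 38.8 and 3097 normalized counts in the 3 lines (log2 1.31, 6.32 and -5.01 in the order used for Egfr). Atf5 was lower in Per/Nr1d_KO than in the Cry/Per/Nr1d_KO-labelled libraries (log2 -0.96), and Crem, a cAMP-responsive factor, was higher in the Cry/Per_KO-labelled libraries than in the Cry/Per/Nr1d_KO-labelled ones and in Per/Nr1d_KO (log2 1.36 and, with Per/Nr1d_KO first, -1.12).

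Of 19 genes known as AP-1 targets, 15 were tested, and most were called in Per/Nr1d_KO. There 8 were higher and 4 lower against the Cry/Per/Nr1d_KO-labelled libraries, and 8 higher and 3 lower against the Cry/Per_KO-labelled ones, with medians of 0.84 and 0.96 on the log2 scale and 20.7% and 29% of all genes called in either direction. Ccl2, a chemokine gene, rose by log2 3.20 against the former reference. Il6, a cytokine gene, had means of 29.9, 59.4 and 592 normalized counts in the Cry/Per/Nr1d_KO-labelled libraries, the Cry/Per_KO-labelled ones and Per/Nr1d_KO (log2 4.27 and 3.32 for Per/Nr1d_KO against these). Mmp9, a matrix protease, rose by 4.15 against the Cry/Per_KO-labelled libraries, where its mean was only 13.3 normalized counts. Il6 and Mmp9 passed the filter on counts only through Per/Nr1d_KO, where they were highest, so that some difference was built into their entry. Ccnd1, the cyclin D1 gene, fell by 3.52 and by 2.38 on the log2 scale (edgeR adjusted p = 7.2e-18 and 3.5e-16). Between the Cry/Per_KO-labelled and Cry/Per/Nr1d_KO-labelled libraries 4 were higher and 4 lower, where 16.8% of all genes were called, led by Mmp9 (log2 -2.80), Ccl2 (log2 1.48) and Lox, a collagen crosslinking enzyme (log2 1.28).

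**Figure D5:**
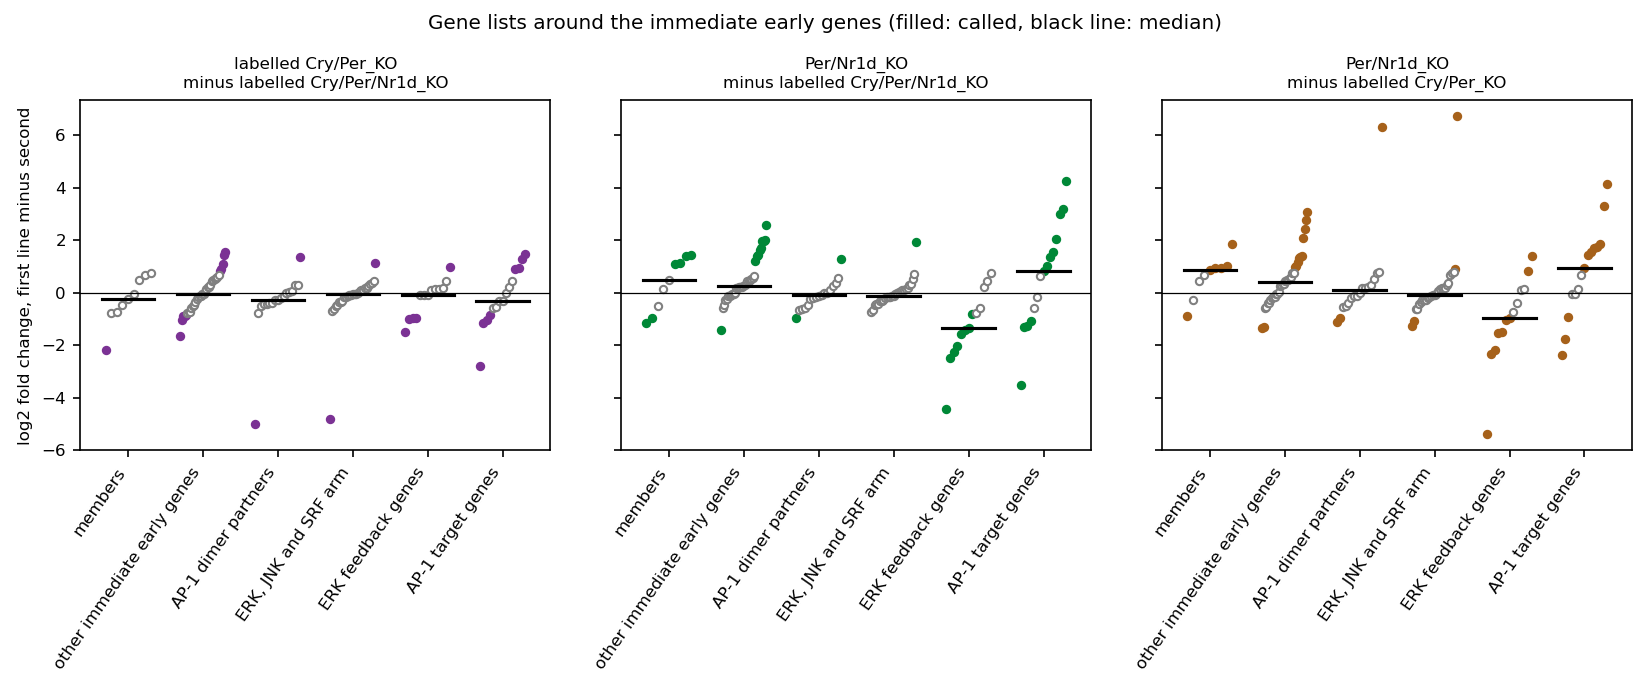
Log2 fold changes of the tested genes of each list in the 3 comparisons, 1 point per gene in rank order, filled where called, with the median of all tested genes of the list as a black line; genes with a mean under 3 normalized counts in either line are not drawn. The ERK feedback genes have medians of -1.36 and -0.96 in the Per/Nr1d_KO panels and the AP-1 target genes 0.84 and 0.96.

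Genes with the pattern most like that of Fos over the 6 libraries, by Pearson's r of log2 CPM, were a gene with Entrez ID 100503083 (r = 0.9987), Rbm12b1 (r = 0.9986) and Oxnad1 (r = 0.9986), and 970 of 11933 genes had an r above 0.95. For Egr1 they were Dnaaf5 (r = 0.9974), Wasf1 (r = 0.9963) and Supt4a (r = 0.9954), with 868 genes above 0.95. The libraries of a line share their cells, so these values describe 3 levels rather than 6 independent ones.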

How the data were processed

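The authors mapped single-end reads of stranded poly-A libraries to mm10 with STAR and counted reads per gene with featureCounts. The deposited counts are raw, per Entrez gene ID. Strand setting and treatment of multi-mapped reads are not given in the sources used here. Tables with the authors' DESeq2 1.22.2 comparisons (mean levels, log2 fold changes, standard errors and p-values) were not used. Gene IDs were matched to symbols for 25275 of 27179 genes (93%), and 20375 had a count.

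Counts were normalized with TMM and tested with edgeR 4.0.16 (quasi-likelihood, limma 3.58.1) in R 4.3.3, on genes averaging 100 or more normalized counts, in 1 fit with 3 groups (common biological coefficient of variation 0.0393). The adjusted p limit was 0.05 and the log2 fold limit 0.81. RPKM used the longest RefSeq-matched GENCODE transcript. Total counts were 53764390 to 85927236 per library, and precision is lowest for Fosb, Egr2 and Fos, which had the fewest counts. Chi-square per degree of freedom between libraries of a line was 16.8, 8.07 and 8.2.

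Named genes were the 10 members, Nr1d1, Nr1d2 and Arntl, the 3 genes most like Fos and Egr1, and, per list and comparison, up to 3 called genes with the largest differences, some of which are not reported here. Members and lists were chosen with earlier results of these data known. Col3a1 and S100a4 were named after their values were seen. Alternatives were DESeq2 1.42.0, glmTreat, other filters and size factors, fits of the compared groups alone, each library left out, the replicate block, exchanged labels and chromosome medians subtracted. Promoters and positions are from RefSeq on GRCm38.p6, with promoters searched for 7 of 10 members. The promoter of Egr1 was left out of that search. No protein sequence was used.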

Additional observations from a re-analysis of the deposited data

How the results depend on the processing

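Counts of called members rested more on the thresholds than on the fit. With DESeq2 at the criteria stated for the study (adjusted p under 1e-22) 0, 3 and 3 members were called in the Cry/Per_KO-labelled libraries against the Cry/Per/Nr1d_KO-labelled ones, in Per/Nr1d_KO against the latter and in Per/Nr1d_KO against the former, where the report has 1, 6 and 6. Over all genes, 1101 and 1764 met those criteria in the first and second of these comparisons, where the edgeR test called 2006 and 2468. With DESeq2 at an adjusted p under 0.05 and the same fold limit, 1, 6 and 6 members were called. That setting called 2002 and 2465 of all genes in the first and second. Without a limit on the fold, 8 members passed in the first comparison, as did 9118 of all genes. With glmTreat, which tests against the fold limit itself, 2 members were called in the third, Fos and Egr1. It called 1 and 6 members, and 1411 and 2032 of all genes, in the first and second. With chromosome medians subtracted, 2 members were called in the first, with Fos gained, and 5 in the second, with Jun lost. In the third 4 were called, with Jun and Ier2 lost. Over all genes, 1619 and 2300 were then called in the first and second. For the third comparison the counts over all genes under these settings are not given here, so its member counts have no background. Leaving out each library in turn gave 1 to 3 members in the first comparison, 6 in the second and 5 to 6 in the third, and the libraries responsible are named in the report. Without the first Cry/Per_KO-labelled library the log2 difference of Jun in the first comparison was 0.0087, in a range of -0.12 to 0.0087 over the libraries left out. In these fits the lone library of a line is assumed to vary like the others.

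With the genotype labels exchanged, the log2 differences of the first comparison were 0.78 for Fos, 0.24 for Fosl1, -0.75 for Fosl2, 0.055 for Jun, -0.69 for Junb, -0.47 for Jund, 0.49 for Egr1, 2.16 for Egr2 and 0.72 for Ier2, and Egr2 became 1.01 and -1.15 in Per/Nr1d_KO against the pairs then called Cry/Per/Nr1d_KO and Cry/Per_KO. The other directions of Per/Nr1d_KO were the same under the exchange.

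Libraries with the same replicate number did not deviate together. Their correlations over genes were -0.167, -0.068 and -0.015, so the numbers pair no samples, and with the replicate block 1, 6 and 6 members were called.

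Fosb, which failed the filter, had log2 differences of -0.16, 0.04 and 0.20 in the same 3 comparisons when genes with a mean of at least 10 were kept. With that filter the genes past the ratio limit between libraries of a line were 11.2%, 12.2% and 11.6%, and with median-of-ratios size factors 2 members passed it in the Cry/Per_KO-labelled libraries. Alternatives chosen after seeing the data changed the transcript lengths. GENCODE exon unions gave Fosl2 51.3%, 68.6% and 76.6% of its family and Jun 46.3%, 36% and 15.6% of its own in the Cry/Per/Nr1d_KO-labelled libraries, the Cry/Per_KO-labelled ones and Per/Nr1d_KO, and the RefSeq span of Jund gave Jun 49.6%, 38.3% and 17.8%. The cause of these shifts was not tested except where the lengths or the number of genes kept set them.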
